A study of Mus musculus with 4 samples.

Results

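The phagocyte NADPH oxidase is followed here through 6 genes, the membrane subunits Cybb and Cyba, the cytosolic subunits Ncf1 and Ncf4, the GTPase Rac2 and the proton channel Hvcn1. They were chosen by name, 6 of 19938 genes with a value on the arrays, and each was read by 1 probe set. RNA came from the mucosa of the septum and turbinates of mouse noses, and each of 4 groups had 1 array. The groups were wild-type mice given PBS, wild-type mice given flagellin, Duox2-/- mice given PBS and Duox2-/- mice given flagellin. All mice carried the strain label C56BL/6 and were 8 weeks old. Flagellin, the protein of bacterial flagella, was given through the nose at 5 ug/ml for 4 h, and instillations were of 25 ul per nostril. The arrays of the mutant mice are called knockout-labelled below, since the data do not show the loss of Duox2 RNA. The sources used here do not say how the Duox2 allele was made, nor whether 1 mouse or a pool gave the RNA of an array. With 1 array per group there are no replicates, so each difference is between single arrays and has no replicate check.

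The phagocyte oxidase transfers electrons from NADPH inside the cell to oxygen outside it or in the phagosome, which makes superoxide. Cybb encodes the catalytic, haem-bearing subunit, and Cyba the partner that stabilises it in the membrane. On activation Ncf1, the organiser, and Ncf4, which binds a phosphoinositide of the phagosome, move to the membrane, together with Rac2 in its GTP-bound form. Hvcn1 lets protons follow the electrons and so balances the charge. Neutrophils, monocytes and macrophages are the main cells that carry the complex, and its loss causes chronic granulomatous disease. Duox2, the gene altered in the mutant mice, encodes a related oxidase of epithelial cells that makes hydrogen peroxide.

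RefSeq promoters (GRCm38.p6) were matched for 3 of the 6 genes, Cybb, Cyba and Ncf1. Their 250 bases before the start site are shown because Cybb differed from the other 2 in its values across the arrays. Capitals mark matches, on either strand, to the interferon response motif (GAAA, any 2 bases, GAAA) or to the CCAAT box. The C/EBP motif TTNNGNAA and the PU.1 core GAGGAA were searched as well and had no match.
Cybb promoter (chrX:9469325-9469574, minus strand): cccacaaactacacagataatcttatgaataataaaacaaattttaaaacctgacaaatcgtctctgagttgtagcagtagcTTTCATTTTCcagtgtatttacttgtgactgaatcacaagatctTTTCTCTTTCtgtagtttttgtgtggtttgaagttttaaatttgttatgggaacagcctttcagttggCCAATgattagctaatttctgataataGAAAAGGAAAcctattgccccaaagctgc
Cyba promoter (chr8:122432941-122433190, minus strand): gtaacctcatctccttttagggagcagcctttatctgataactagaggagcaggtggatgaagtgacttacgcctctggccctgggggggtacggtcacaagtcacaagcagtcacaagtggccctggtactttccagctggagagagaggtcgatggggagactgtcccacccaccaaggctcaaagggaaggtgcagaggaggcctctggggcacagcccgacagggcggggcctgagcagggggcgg
Ncf1 promoter (chr5:134229626-134229875, minus strand): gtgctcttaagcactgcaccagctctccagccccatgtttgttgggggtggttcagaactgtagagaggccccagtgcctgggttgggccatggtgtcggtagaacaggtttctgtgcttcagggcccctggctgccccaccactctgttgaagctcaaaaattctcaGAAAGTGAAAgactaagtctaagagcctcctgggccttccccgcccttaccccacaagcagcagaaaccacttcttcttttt
The Cybb window held 3 matches to the interferon response motif, at bases 168 to 159, 124 to 115 and 29 to 20 before the start, and 1 CCAAT box at bases 56 to 52. None of these matches overlapped. The Ncf1 window held 1 interferon response match, at bases 82 to 73, and the Cyba window had no match to any of the 4 motifs. Of 32851 RefSeq promoter windows of this length, 2.98% held at least 1 interferon response match and 0.012%, 4 windows, held 3 or more. A CCAAT box was in 33.8%, a C/EBP match in 36.8% and a PU.1 core in 23.3%. The Cybb window is rich in A and T, with a GC share of 34% against a mean of 53.2% over all windows, 54.4% in Ncf1 and 60% in Cyba. A match is a description of the letters and shows no binding.

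The median of all deposited log2 values, over probe sets and arrays, was 6.52. A gene whose highest value reached this level was called bright enough to be ranked, which held for 12471 genes and for 4 of the 6 oxidase genes. Ncf4 and Hvcn1 stayed below it in every array, so their differences are less certain. The array medians lay between 6.48 and 6.56. Between the quartiles the values spanned 2.79 (PBS) and 2.73 (flagellin) for wild type but 2.54 and 2.43 for the knockout label. Over the 7467 genes too dim to be ranked, the median difference between the knockout-labelled arrays and wild type was 0.21 under PBS and 0.28 after flagellin, whereas over the ranked genes it was -0.04 and -0.12. Dim genes thus read higher in the knockout-labelled arrays as a whole. Duox2 itself was dim in all arrays, with log2 values of 4.95 and 5.12 in wild type (PBS, flagellin) and 5.23 and 5.50 in the knockout-labelled arrays. It was not lower in the latter. The sources used here do not say whether the probe set covers the altered stretch, so this value may check nothing. Markers of nasal tissue were bright, with Bpifa1, a secreted airway protein, between 12.5 and 12.7 and Omp, of olfactory neurons, between 11.9 and 12.2, while the club cell gene Scgb1a1 was dim, between 3.23 and 4.30.

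Of the 6 genes, Cybb had the widest spread across the arrays. On the log2 scale it read 7.78 with PBS and 8.90 with flagellin in wild type, and 7.53 with PBS and 7.31 with flagellin under the knockout label. The wild-type flagellin array stood alone at the top, and the flagellin knockout-labelled array was the lowest of the 4, a range of 1.59. Cyba, whose protein pairs with that of Cybb in the membrane, had 7.48, 7.76, 7.45 and 7.61 in the same order of arrays. Both flagellin arrays were above both PBS arrays for Cyba, within a range of 0.31.

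The cytosolic organiser Ncf1 read 6.59, 7.002, 6.79 and 6.95 over these arrays. As for Cyba, both flagellin arrays were above both PBS arrays, but the wild-type PBS array was the lowest, and the range was 0.41. Rac2, a GTPase found mainly in blood-derived cells, had 6.67, 7.16, 7.02 and 7.09. Here too wild-type PBS was low and the other arrays were close together, with a range of 0.49. Ncf4 had 5.45, 5.79, 5.89 and 5.93, so that wild-type PBS was again the lowest, and Hvcn1 had 5.44, 5.46, 5.64 and 5.55, the narrowest range of the 6 at 0.19. In 4 of the 6 genes (Ncf1, Rac2, Ncf4 and Hvcn1) wild-type PBS was the lowest array, and in 4 (Cybb, Cyba, Ncf1 and Rac2) wild-type flagellin was the highest. Of the ranked genes 42.3%, and of the dim genes 79.8%, were higher in knockout-labelled than in wild-type PBS. With flagellin in wild type 49.5% of ranked and 56.4% of dim genes were higher than with PBS. A low wild-type PBS value is thus common among dim genes such as Ncf4 and Hvcn1. The share of all genes with each order of arrays was not counted.

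**Figure D1:**
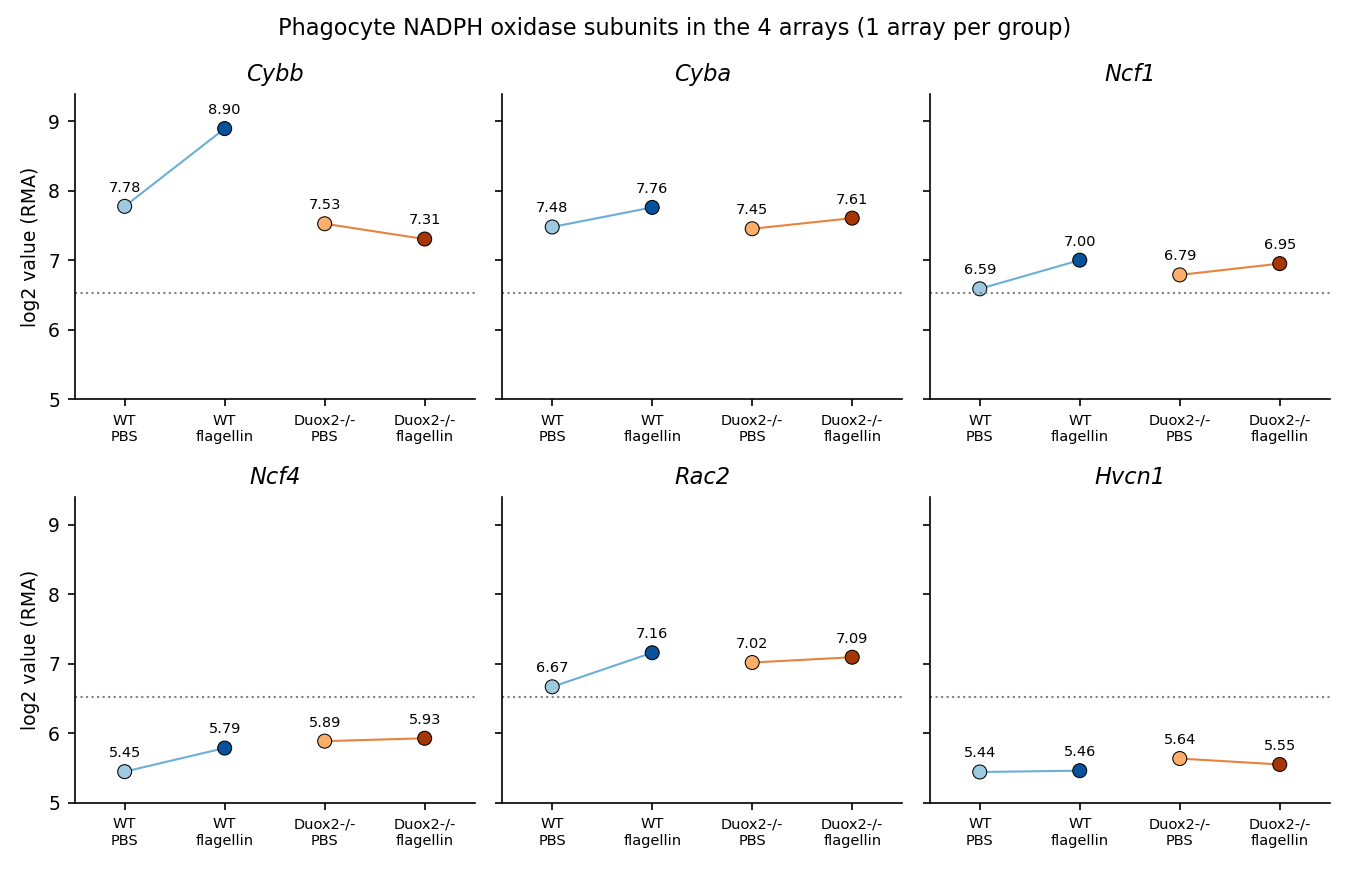
Log2 value of each subunit gene in each of the 4 arrays, 1 point per array with its value beside it, lines joining PBS to flagellin within a genotype, and a dotted line at 6.52, the median of all values. Cybb reaches 8.90 in wild-type flagellin and 7.31 in knockout-labelled flagellin, while the other 5 genes stay within a range of 0.49; levels are to be read across arrays within a gene, not between genes.

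Setting flagellin against PBS in wild type asks how the bacterial protein shifts the oxidase genes in normal mucosa. All 6 genes were higher after flagellin, with a median log2 difference of 0.38, against a median of -0.002 and 49.5% above 0 over the ranked genes. Over the dim genes the median was 0.03, with 56.4% above 0. Cybb was higher by 1.12 (2.17-fold), Rac2 by 0.49 (1.40-fold), Ncf1 by 0.41, Ncf4 by 0.34 and Cyba by 0.28. Hvcn1 was at 0.02, and its sign turned under quantile renormalisation, cyclic loess and median centring. Cybb alone reached 2-fold, 1 of the 4 ranked oxidase genes, where 0.922% of all ranked genes were at least 2-fold higher. Only 88 ranked genes had a larger difference than Cybb, 375 a larger one than Rac2 and 465 a larger one than Ncf1. The difference of Cybb exceeded that of the next subunit, Rac2, by 0.63. The robust SD of this difference over the ranked genes, a spread between genes and not between animals, was 0.145.

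Setting flagellin against PBS under the knockout label asks whether the same shift is present there. The differences were small in all 6 genes, with a median of 0.06 against -0.07 over the ranked genes. Ncf1 was at 0.16, Cyba at 0.15, Rac2 at 0.08 and Ncf4 at 0.04, while Hvcn1 was at -0.09 and Cybb at -0.22. Thus 4 of 6 were above 0, against 37.8% of the ranked genes and 66.9% of the dim genes, whose median was 0.10. The sign of Ncf4 turned under cyclic loess. No subunit reached 2-fold, where 0.682% of ranked genes did in either direction. Each of the 6 values was smaller in size than 0.231, the robust SD over the ranked genes, and 9246 ranked genes had a higher value than Cybb.

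The difference between these responses asks whether the shift depended on the genotype label. The wild-type response was the more positive in all 6 genes, with a median difference of 0.27 against 0.07 over the ranked genes, of which 59.9% were above 0. Over the dim genes the median was -0.07, with 41.2% above 0. For Cybb the difference was 1.34, since the gene was 2.17-fold higher with flagellin in wild type and 1.16-fold lower in the knockout-labelled arrays. For Rac2 it was 0.41, for Ncf4 0.30, for Ncf1 0.25, for Cyba 0.13 and for Hvcn1 0.10. Cybb alone was past 2-fold, where 1.44% of ranked genes were past it in this direction. The interaction cannot be tested with 1 array per group. The differences of the other 5 genes ran from 0.10 to 0.41, against a robust SD over the ranked genes of 0.274. Measured from the ranked median of 0.07, only Rac2 of these 5 lay beyond that SD. Measured from the dim median of -0.07, the dim Ncf4, at 0.30, lay beyond it as well, and the dim Hvcn1, at 0.10, did not.

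**Figure D2:**
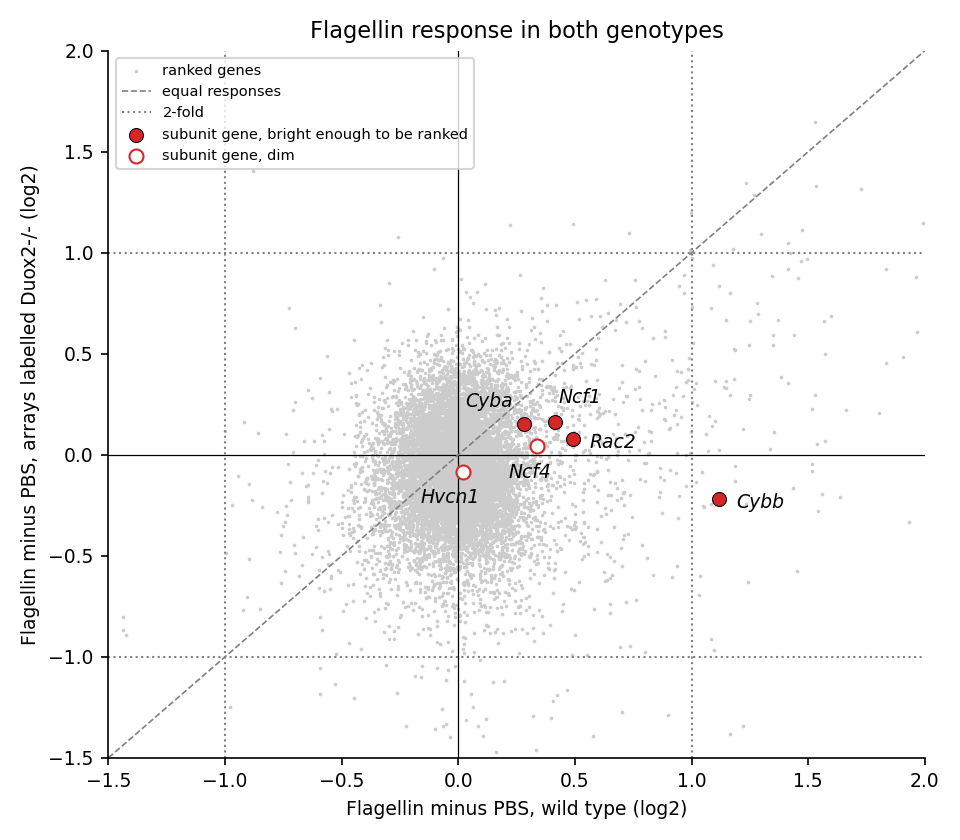
Flagellin minus PBS on the log2 scale in wild type (horizontal) and in the knockout-labelled arrays (vertical) for the ranked genes (grey) and the 6 subunit genes (red, open where dim), with dotted lines at 2-fold and a dashed line where both responses are equal; 37 ranked genes lie outside the axes. All 6 subunits lie below the dashed line, and Cybb, at 1.12 and -0.22, is the farthest from it.

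Comparing the PBS arrays asks how the genes stood before flagellin. In the knockout-labelled array the membrane subunits were at or below wild type, Cybb by -0.25 and Cyba by -0.03, and the sign of Cyba turned under cyclic loess and quantile renormalisation. Ncf4 was higher by 0.44, Rac2 by 0.35 and Ncf1 by 0.20. Hvcn1 was at 0.19, and at -0.02 under cyclic loess. Since dim genes as a whole read 0.21 higher in this array, the value of Hvcn1 lay just under their median and that of Ncf4 above it. No subunit was past 2-fold, where 1.41% of ranked genes were.

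After flagellin the genotype labels differed mainly in Cybb. It was lower in the knockout-labelled array by a log2 difference of -1.59, a 3.01-fold lower value. Only 44 ranked genes had a lower difference, and 1.65% of ranked genes were at least 2-fold lower. The other 5 genes lay between -0.15 (Cyba) and 0.14 (Ncf4), with Rac2 at -0.06, Ncf1 at -0.05 and Hvcn1 at 0.09. The median was -0.12 over the ranked genes and 0.28 over the dim genes, so the dim Ncf4 and Hvcn1 lay under the latter. The signs of Ncf4 and Hvcn1 turned under cyclic loess and quantile renormalisation. The flagellin arrays enter both this comparison and the responses above, and the PBS arrays likewise, so the 4 differences of a gene are not independent of each other.

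An additive limma model over the ranked genes, with a flagellin term common to both genotypes and a genotype term common to both treatments, has 1 residual degree of freedom, taken up by the interaction. None of the 4 ranked subunits passed a Benjamini-Hochberg adjusted p of 0.05 for flagellin in limma, where 0.281% of ranked genes were called. An unadjusted p under 0.05 was found for 0 of the 4, beside 805 of the 12471 ranked genes. The flagellin term was 0.45 (SE 0.26, adjusted p = 0.890 in limma) for Cybb, 0.29 (SE 0.13, 0.804) for Ncf1, 0.28 (SE 0.15, 0.840) for Rac2 and 0.22 (SE 0.13, 0.895) for Cyba. For the genotype term 0 of 4 were called in limma, where 4.37% of ranked genes were called. Of the 12471 ranked genes 2888 had an unadjusted p under 0.05 for this term, as had 1 of the 4 subunits. This 1 gene was Cybb, lower by -0.92 in the knockout-labelled arrays (SE 0.26, adjusted p = 0.0841 in limma). Its adjusted p was 0.0488 when the dim genes entered the fit as well and between 0.0670 and 0.220 under the other alternatives. The flagellin term of Cybb averages over responses of opposite sign, 1.12 and -0.22, and its genotype term over differences of -0.25 and -1.59.

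The proteins that assemble or switch on the complex were read from a list of 15 genes with a value. In wild type 14 of the 15 were above 0 after flagellin, with a median of 0.18 and none at 2-fold. In the knockout-labelled arrays 3 of 15 were, with a median of -0.13. Of all ranked genes 49.5% were above 0 in wild type and 37.8% under the knockout label. The shares of dim genes were 56.4% and 66.9%, and 4 of the 15 were dim. Rac1, the widely expressed relative of Rac2, was at 0.14 and 0.07 under the wild-type and knockout labels, and Cybc1, the chaperone needed for the Cybb protein, at 0.05 and -0.07, so neither shared the wild-type difference of Cybb. The largest wild-type difference of the list was that of Arhgdib, which holds Rac proteins in the cytosol of blood cells, at 0.54, with -0.33 in the other genotype. The kinase gene Prkcd, whose product phosphorylates the organiser subunit, was at 0.31 and -0.28, and the phosphoinositide kinase gene Pik3cg at 0.30 and -0.15. Prkcb, another kinase of the same subunit, was at 0.21 and -0.01.

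Receptors through which phagocytes trigger the burst had a larger wild-type median. Of 12 listed, 10 had a value, all 10 were above 0 in wild type, and the median was 0.58, with none at 2-fold. In the knockout-labelled arrays 4 of 10 were above 0, with a median of -0.01. That count is near the share of all ranked genes, 37.8%, and below that of dim genes, 66.9%. In wild type the shares were 49.5% and 56.4%, and 5 of the 10 were dim. The integrin chains Itgam and Itgb2, which together form complement receptor type 3, were at 0.70 and 0.64 in wild type and at -0.46 and -0.01 in the other genotype. The signalling chain Fcer1g was at 0.60 and -0.01, and Clec7a, the receptor for fungal glucans, at 0.60 and -0.08. Clec7a reached 6.52 in wild-type flagellin only. After flagellin all 10 were lower in the knockout-labelled array than in wild type, Itgam by -1.72 and Clec7a by -1.05. Of all ranked genes 33.2% were above 0 in this comparison, so most were lower too.

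Other NADPH oxidases and their partners, 9 genes of which 2 were bright enough to be ranked, did not share this order of arrays. Their median was 0.07 in wild type and 0.25 in the knockout-labelled arrays. Noxo1, the organiser of the epithelial oxidase Nox1, was at 0.01 and 0.05, and Duoxa1, the maturation factor of Duox1, at 0.01 and 0.27. The dim genes Nox1, Nox4, Duox1 and Duox2 were at -0.03, 0.50, 0.06 and 0.17 in wild type and at 0.41, -0.24, -0.06 and 0.28 in the other genotype. Among enzymes that use or remove the oxidants, 8 of 9 listed with a value, 6 were above 0 in wild type and 4 in the knockout-labelled arrays, with medians of 0.20 and -0.04. The shares above 0 were 49.5% and 37.8% over all ranked genes and 56.4% and 66.9% over dim genes. Mpo, which turns hydrogen peroxide into hypochlorous acid in neutrophils, was at 1.14 and 0.33, and reached 6.52 in wild-type flagellin only. The superoxide dismutases Sod1 and Sod2 were at -0.17 and 0.10 in wild type and at 0.07 and -0.15 in the other genotype, and catalase (Cat) was at -0.32 and -0.54.

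**Figure D3:**
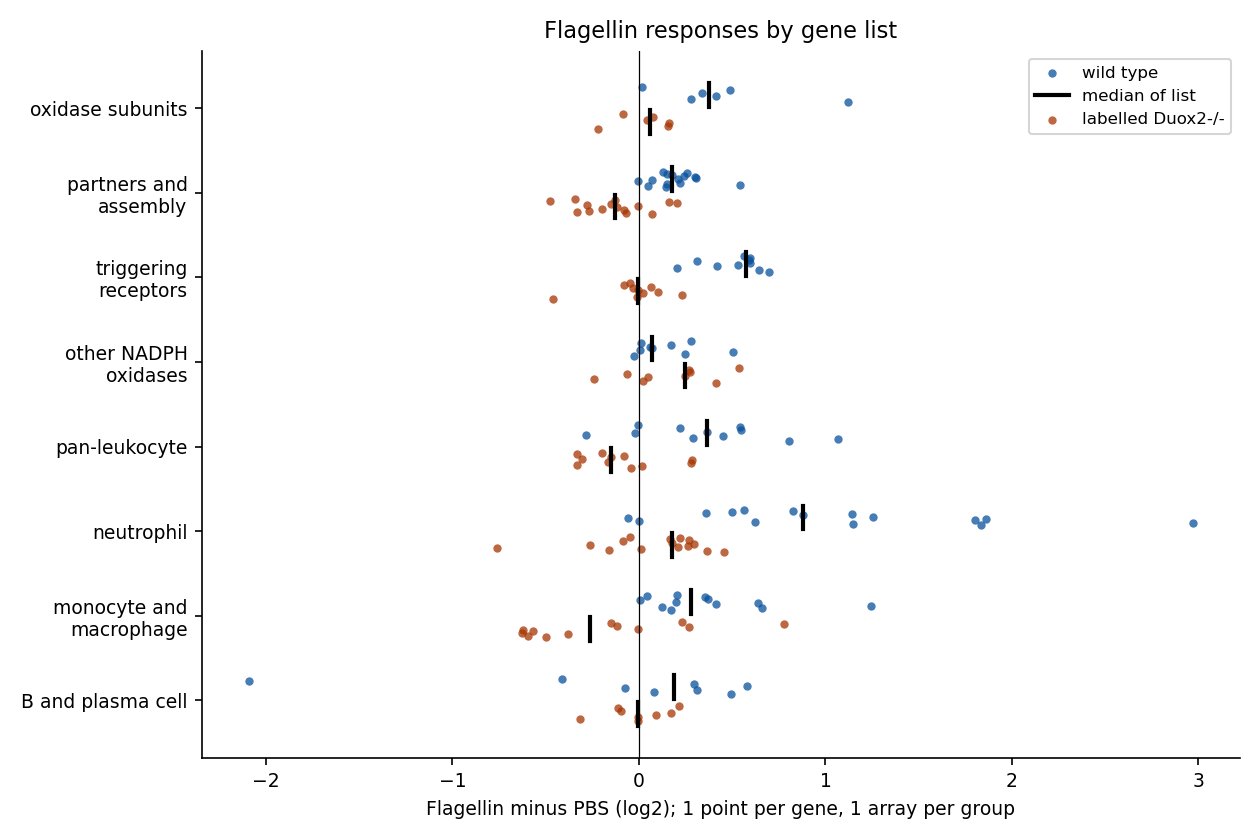
Flagellin minus PBS on the log2 scale for each gene with a value of 8 lists, in wild type (blue) and in the knockout-labelled arrays (brown), with black bars at the list medians. The subunit medians are 0.38 and 0.06, those of the triggering receptors 0.58 and -0.01, and those of neutrophil markers 0.88 and 0.18.

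Markers of the cells that carry the oxidase differed between the same arrays. In this whole tissue, fewer cells of a type and less RNA per cell cannot be told apart. Of 11 pan-leukocyte markers with a value, 8 were above 0 in wild type after flagellin and 3 in the knockout-labelled arrays, with medians of 0.36 and -0.15. Over all ranked genes 49.5% and 37.8% were above 0, and over dim genes 56.4% and 66.9%, and 5 of the 11 markers were dim. Cd53, a leukocyte tetraspanin, was at 1.07 and 0.02, Ptprc, the common leukocyte antigen, at 0.81 and -0.04, and the actin-binding gene Coro1a at 0.45 and 0.28. Summed on the linear scale, these markers gave 2477 with PBS and 2986 with flagellin in wild type, and 2076 with PBS and 1875 with flagellin under the knockout label. That is the order of arrays seen for Cybb. The largest term of the sum is Lcp1, at 9.92, 9.64, 9.25 and 9.08 in these arrays. Lcp1 was lower with flagellin in wild type, at -0.28. The list shares Arhgdib, Vav1 and Dock2 with the assembly list. The part of cell number in the oxidase values was not tested.

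Of 15 neutrophil markers 13 were above 0 in wild type, 7 of them at 2-fold, with a median of 0.88. In the knockout-labelled arrays 10 were above 0, none at 2-fold, with a median of 0.18. In wild type 49.5% of ranked and 56.4% of dim genes were above 0, and 0.922% of ranked genes were at least 2-fold higher. Under the knockout label 37.8% of ranked and 66.9% of dim genes were above 0. The granule gene Ngp was at 2.97 and -0.16, the alarmin S100a8 at 1.83 and 0.45, Retnlg, a resistin-like gene of mature neutrophils, at 1.80 and 0.21, and the chemokine receptor Cxcr2 at 1.25 and 0.29. Under PBS 14 of the 15 were higher in the knockout-labelled array, with a median of 0.43 and Ngp at 1.68. Over all features, 42.3% of ranked and 79.8% of dim genes were above 0 in this comparison, and 6 of the 15 markers were dim. The summed level was 7195, 8180, 7200 and 4933 over the 4 arrays in the order above. It is set mainly by Ltf, between 11.7 and 12.6, which gland cells also express.

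Monocyte and macrophage markers followed another order. Of 12 with a value all 12 were above 0 in wild type, with a median of 0.28, and 3 in the knockout-labelled arrays, with a median of -0.27. The shares of all ranked genes were 49.5% and 37.8%. The 2 with values nearest 0 in wild type, C1qb and Ms4a7, were at 0.005 and 0.04. Ccr2, the receptor that draws monocytes from blood, was at 1.24 and -0.63, the macrophage antigen Adgre1 at 0.66 and -0.60, the haemoglobin scavenger receptor Cd163 at 0.64 and -0.62 and the mannose receptor Mrc1 at 0.42 and -0.57. Ccr2 and Adgre1 reached 6.52 in wild-type flagellin only, so filter and choice favour a high wild-type response in them. Under PBS 10 of 12 were lower in the knockout-labelled array, and after flagellin all 12 were, Ccr2 by -2.00, where 42.3% and 33.2% of ranked genes were above 0. Cybb was highest in wild-type flagellin and lowest in knockout-labelled flagellin, as were 7 of the 12 markers, Ccr2, Adgre1 and Mrc1 among them. Cd163 was not, since its highest array was knockout-labelled PBS. The same highest and lowest arrays were seen in 7 of 15 assembly genes, 5 of 10 triggering receptors and 5 of 11 pan-leukocyte markers. They were also seen in 2 of 6 endothelial and 2 of 10 nasal epithelium and gland markers, but in 0 of 15 neutrophil markers. The share over all genes was not counted, so these counts do not show that any list is closer to Cybb than genes at large. Arhgdib and Vav1 enter both the assembly and the pan-leukocyte count. The summed level was 2067, 2607, 1668 and 1625. Its largest term is Lyz2, at 9.27, 9.62, 8.23 and 9.01 in these arrays. Unlike Ccr2, Adgre1, Cd163 and Mrc1, Lyz2 was higher with flagellin under the knockout label, by 0.78, against 0.35 in wild type. The others above 0 there were C1qb at 0.27 and Fcgr1 at 0.23.

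Other blood-derived cells were read from shorter lists with few bright genes. B and plasma cell markers, which matter for Hvcn1 since B cells carry the channel, had medians of 0.19 in wild type and -0.005 in the knockout-labelled arrays over 8 genes. Only Jchain (-2.09, -0.11) and Mzb1 (-0.41, 0.21) of these were bright enough to be ranked. T and natural killer cell markers had medians of 0.23 and 0.18 over 9 genes, with Cd3g at 1.57 and 0.07, dendritic cell markers 0.40 and 0.06 over 7, eosinophil markers 0.10 and 0.24 over 5, with Prg2 at 2.52 and 0.49, and mast cell markers 0.01 and -0.10 over 6. Cd3g reached 6.52 in wild-type flagellin only. The 4 arrays also differed in other tissue. Summed skeletal muscle markers gave 419.3 and 1257 with PBS and flagellin in wild type, and 2682 and 599 under the knockout label, so knockout-labelled PBS was the highest array, which it was for none of the subunits but Hvcn1. Endothelial markers gave 1138, 1184, 1172 and 780.5, lowest in the array in which Cybb was lowest. The 3 red cell genes with a value, Alas2, Slc4a1 and Epb42, were lowest in wild-type PBS, with medians of 1.03 for flagellin in wild type and 0.97 for the genotype label under PBS. Ncf1, Rac2 and Ncf4 were lowest in the same array. Nasal epithelium and gland markers summed to 22970, 22610, 19430 and 18820, and olfactory neuron markers to 13930, 15310, 13980 and 17600. The part of these tissues in the oxidase values was not tested.

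The profiles over the 4 arrays, each centred on its own mean, separated Cybb from the rest. The Euclidean distance between the profiles of Ncf1 and Rac2 was 0.11, the smallest of the 15 pairs, and the largest pair without Cybb, Cyba and Ncf4, was at 0.39. The distances from Cybb to the other 5 ran from 1.05 (Cyba) to 1.34 (Ncf4). Among 11544 ranked genes searched, the 4 nearest to Cybb were Lilrb4a, an inhibitory receptor of myeloid cells, at 0.17, F13a1, the coagulation factor subunit made by macrophages, at 0.19, Fyb, an adaptor of T cells and myeloid cells, at 0.19 and Sting1, the sensor adaptor for cyclic dinucleotides, at 0.20. They were picked as the closest of 11544 genes, so their being nearer to Cybb than the other subunits carries no weight. The distance also grows with the range over the arrays, which was 1.59 for Cybb and at most 0.49 for the other subunits. Lilrb4a and Fyb reached 6.52 in wild-type flagellin only. Lilrb4a was at 1.19 and -0.05 for flagellin under the wild-type and knockout labels, and F13a1 at 1.19 and -0.13.

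Nearest to the mean profile of the 6 subunits were Ube2v2, Tuba8, Tnip1, Prc1, Pygl, Slc15a3, Rad51c and Mapk6, at distances from 0.013 to 0.079. That mean is pulled by Cybb, so none of the 6 needs to be near it. Nearest to Hvcn1 were Mtx1, Mark1, Stab2 and Rhobtb1, at 0.024 to 0.035, all nearly level across the arrays. With 4 points per profile many genes fit closely, and the distances describe these arrays only.

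**Figure D4:**
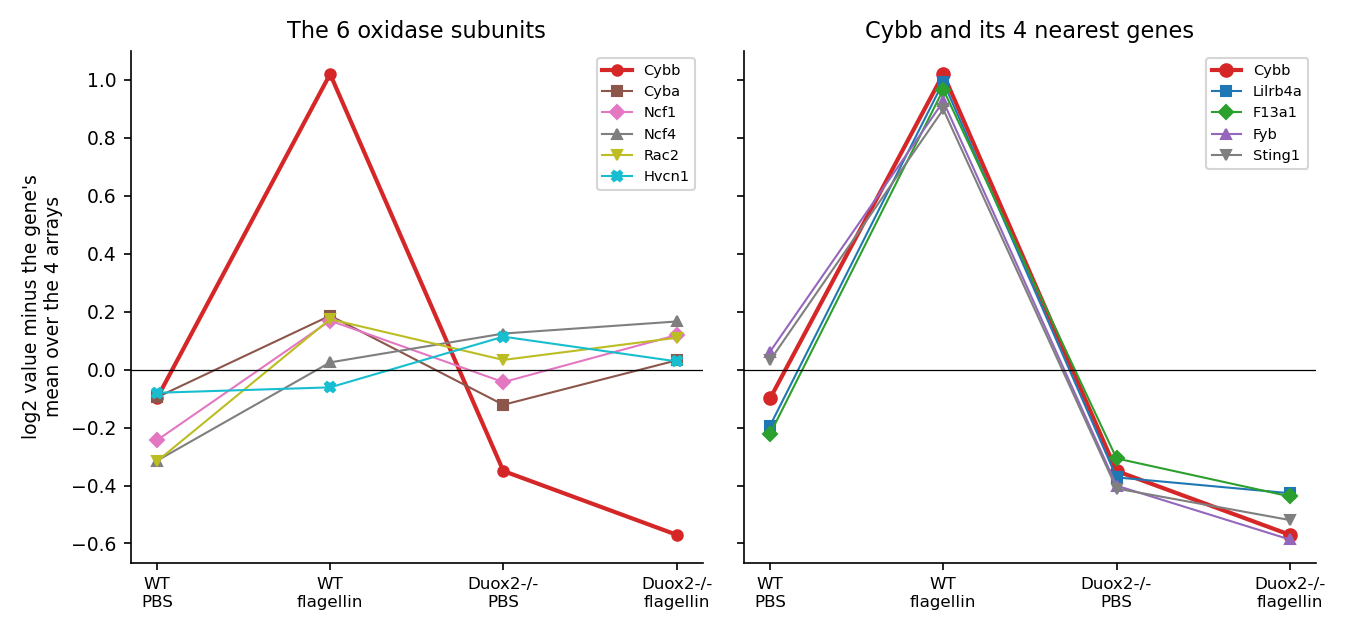
Log2 value minus the gene's mean over the 4 arrays, for the 6 subunits (left) and for Cybb with its 4 nearest genes (right), 1 point per array joined by lines only to follow a gene. Cybb departs from the other subunits by distances of 1.05 to 1.34, while Lilrb4a, F13a1, Fyb and Sting1 lie within 0.20 of it.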

How the data were processed

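Per the submitters' processing notes, the deposited log2 values were made by the authors with RMA in Affymetrix Expression Console 1.1. RMA corrects background, equalises the arrays and summarises each probe set. The sources used here name no genome build. Of 35556 probe sets, 21789 paired with 1 gene; where a gene had several (999 genes), the one with the highest 4-array mean was used, which left 19938 genes. The 6 subunits each had 1 probe set. Differences are of log2 values, counted at 2-fold among the 12471 ranked genes. The additive model used limma 3.58.1 in R 4.3.3 (lmFit, eBayes, Benjamini-Hochberg). The fit was checked on simulated arrays with independent noise and no interaction, which does not measure its power here. Other steps used Python 3.11.15. The lists held 168 memberships, 156 with a value, and the rest were not analysed here. Named from each list were Rac1, Cybc1, Duox1, Duox2, Nox1 and Nox4, and up to 4 ranked genes with the largest wild-type response. This rule favours genes that are high in wild-type flagellin, and some of them were ranked through that array alone. Genes outside this rule (Scgb1a1, Omp, Bpifa1, Ltf, Lcp1, Lyz2, C1qb, Fcgr1, Ms4a7 and the red cell genes) were chosen after their values were seen. Pattern neighbours left out olfactory and vomeronasal receptors, predicted genes and antigen receptor segments. The members and lists were chosen with earlier results of these data known. Alternatives were median centring, quantile renormalisation, cyclic loess, other probe set rules, and other filters on dim genes. Precision is limited by the single array per group.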

Additional observations from a re-analysis of the deposited data

Results flagged for a closer look

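Cybb and Hvcn1 had flagellin responses of opposite sign under the 2 genotype labels, each from 1 array per group. For Cybb the wild-type response exceeded that of the knockout-labelled arrays by a log2 difference of 1.34, from 1.12 and -0.22. For Hvcn1 the difference was 0.10, from 0.02 and -0.09, in a gene under 6.52 in all arrays. Neither difference was tested.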

How the results depend on the processing

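Of 194 values recomputed under the alternatives, 192 moved by less than the robust SD over the ranked genes, or stayed at the same count. A value can change sign within that margin. The 2 exceptions were Hvcn1 under PBS, at -0.02 after cyclic loess, and the limma genotype term, which called 1 subunit (Cybb) instead of 0 without a filter on dim genes. Cybb lay between 1.096 and 1.13 for flagellin in wild type, between -0.22 and -0.12 in the knockout-labelled arrays, and between -1.65 and -1.44 for the genotype label after flagellin. Among single subunit values 11 of 150 changed sign, none with a size of 0.3 or more. The other probe set rules could not change the subunit values, since each subunit has 1 probe set. These fixed values are among the 194 and the 150, so both counts overstate how stable the values are. In limma the flagellin term called 35 ranked genes, 7 after median centring, 0 with cyclic loess (where 687 had an unadjusted p under 0.05) and 60 without a filter. The genotype term called 545, against 161, 1 and 1879 in the same order and 284 after quantile renormalisation. Apart from limma, a plain count was made of ranked genes at least 2-fold apart between the PBS arrays. Of these 80.1% were higher in the knockout-labelled array, and 69.4% after median centring. The cause was not tested. No paired analysis was possible because each group had 1 array. Array number and the dim signal of Ncf4 and Hvcn1 limit these values.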

Other observations

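Ncf4 and Rac2 lie on the same chromosome, 15, with 10 protein-coding genes between them in GRCm38.p6, some of which encode receptors of blood-derived cells. This stretch was chosen for its position after the subunit values were seen. In wild type after flagellin, Il2rb, a chain of the interleukin-2 receptor, was at 0.69, Csf2rb, the shared chain of several cytokine receptors, at 0.36 and its relative Csf2rb2 at 0.23, beside 0.34 for Ncf4 and 0.49 for Rac2. Genes of the stretch that encode no such receptor had values of the same size, Tex33 at 0.47 and C1qtnf6 at 0.43. In the knockout-labelled arrays the 3 receptor genes were at 0.31, -0.02 and 0.36. The sulphur metabolism genes Tst and Mpst, which lie between them, went the other way in wild type, at -0.11 and -0.42. All 3 receptor genes were under 6.52 in every array, so their values are less certain.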
